A study of Mus musculus with 11 samples.

Results

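The genes described are those of thermogenesis and mitochondrial uncoupling, chosen by name: Ucp1, Ucp2, Ucp3, Ppargc1a, Dio2, Adrb3 and Elovl3. All probe sets that the annotation table used here pairs with them were taken, whatever their values. For 5 of the 7 genes, with a pair for Ucp1, this gave 6 of the 12422 probe sets that are not array controls, for 5 of the 8251 genes named by a probe set of their own. Ucp2 and Adrb3 were not analysed here. RNA of mouse 3T3-L1 cells, an established fibroblast line that can be turned into adipocytes in culture, was measured on 11 one-colour arrays. Cultures were exposed for 24 h to the DMSO vehicle alone at 0.1% (n = 3 arrays), to pioglitazone at 20 µM (n = 2), to rosiglitazone at 1 µM (n = 3) or to troglitazone at 20 µM (n = 3). The drugs are thiazolidinediones, which activate the nuclear receptor PPARγ. The labels give neither the differentiation state of the cells nor whether the arrays of a group came from separate cultures, so the errors measure the spread between these arrays. The line derives from a clone and carries no nerve or blood supply, and no adrenergic or cold stimulus is named.

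Brown and beige adipocytes make heat by letting protons flow back across the inner mitochondrial membrane without making ATP, and Ucp1 is the carrier that does this. Noradrenaline reaches the cell through β-adrenergic receptors and raises cyclic AMP, which induces Ucp1, the coactivator Ppargc1a and the deiodinase Dio2. Dio2 converts thyroxine to the active thyroid hormone inside the cell, and Elovl3 lengthens fatty acids and is abundant in activated brown fat. White adipocytes hold little of this programme, and 3T3-L1 cells are commonly used as a model of white adipocytes.

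The titles follow 2 patterns, called sets here. Set 1 comprises the 8 arrays numbered 1 or 2, from every group, and set 2 the 3 arrays numbered 4, which include no pioglitazone. All 11 measured markers of adipocytes lay above the floor defined below on every array, Adipoq at a median signal of 42689.7. Of 17 skeletal muscle markers, 6 lay above it on all arrays, among them Myog (median 708.6), Eno3 (646.1), Myod1 (564.1) and Myh4 (535.3), and 4 on 3 arrays or fewer (Ryr1, Acta1, Myh1 and Myh2). Of 12 macrophage markers, Csf1r (1538.9), Cd14 (673.5) and Laptm5 (172.9) lay above it on all arrays. There were 5 on 3 arrays or fewer (Adgre1, Ptprc, Cd53, Itgam and Lyz2). The probe set of Laptm5 carries the suffix f, explained below for Ucp1, and those of Csf1r and Myh4 the suffix r. Whether these signals come from the named genes alone was not tested. The preadipocyte and fibroblast markers summed to 11820 to 12500 on the vehicle arrays, 7049 to 7605 with pioglitazone, 8018 to 9459 with rosiglitazone and 5767 to 8184 with troglitazone. In RNA of a whole culture, fewer cells of a type and less RNA per cell cannot be told apart. Rosiglitazone replicate 2 correlated least with the other arrays (median r 0.833, against 0.874 to 0.896 for the rest). The 3' to 5' signal ratio of the β-actin controls, a sign of RNA quality, was 4.86 in pioglitazone replicate 2, 1.79 to 2.27 on the other arrays of set 1 and 3.74 to 3.9 in set 2.

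Signals are the deposited linear intensities, and 73.7, the 25th percentile of all pooled values, served as the floor under which a signal was taken as background. The same floor was used for arrays of unequal brightness. On the set 2 arrays 29.7% to 33% of values lay at or under it, and on the set 1 arrays 17.5% to 25.4%. The array medians were 162.8 to 185.9 in set 2 and 204.6 to 243.5 in set 1. Ucp1 was the member nearest to background. It has a probe set whose name carries the suffix f, which marks probes shared by a family of sequences (called the family probe set here), and one without a suffix (the plain probe set). The plain probe set lay above the floor on 4 of 11 arrays, and the family probe set on 6. Ppargc1a, Dio2 and Elovl3 lay above the floor on 10 arrays each. Ucp3 was above it on all 11.

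The bacterial control probe sets, which have no target in mouse RNA unless it was added, gave a stricter scale. Of their 165 values, 72.1% were at or under the floor. Ucp3 exceeded the highest of the 15 bacterial probe sets on all 11 arrays, Elovl3 on 9, Dio2 on 7 and Ppargc1a on 5. For Ucp1 the counts were 3 arrays for the family probe set and 0 for the plain one. Genes of other tissues were a less clean measure, since some of them were bright, as was Tnp1 (median signal 3516.7, suffix r). The median over these genes was exceeded by Ucp3 on 11 arrays, Dio2 on 10, Elovl3 on 9, Ppargc1a on 7, and Ucp1 on 7 (family) and 1 (plain). The 90th percentile over the genes of other tissues was exceeded by Ucp3 on 10 arrays, Elovl3 on 5, Dio2 on 2, and Ppargc1a and both Ucp1 probe sets on 0. The bacterial median was exceeded by Ucp1 on 8 arrays (family) and 9 (plain). So the verdict depends on the measure. By the floor, the highest bacterial control and the median of other tissues, Ucp3 was clear of background on all arrays. Elovl3 and Dio2 were so on most arrays, Ppargc1a by some of these measures, and the plain Ucp1 probe set by hardly any. The level of one probe set was not set against that of another, since probe sets differ in brightness for the same amount of RNA.

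**Figure D1:**
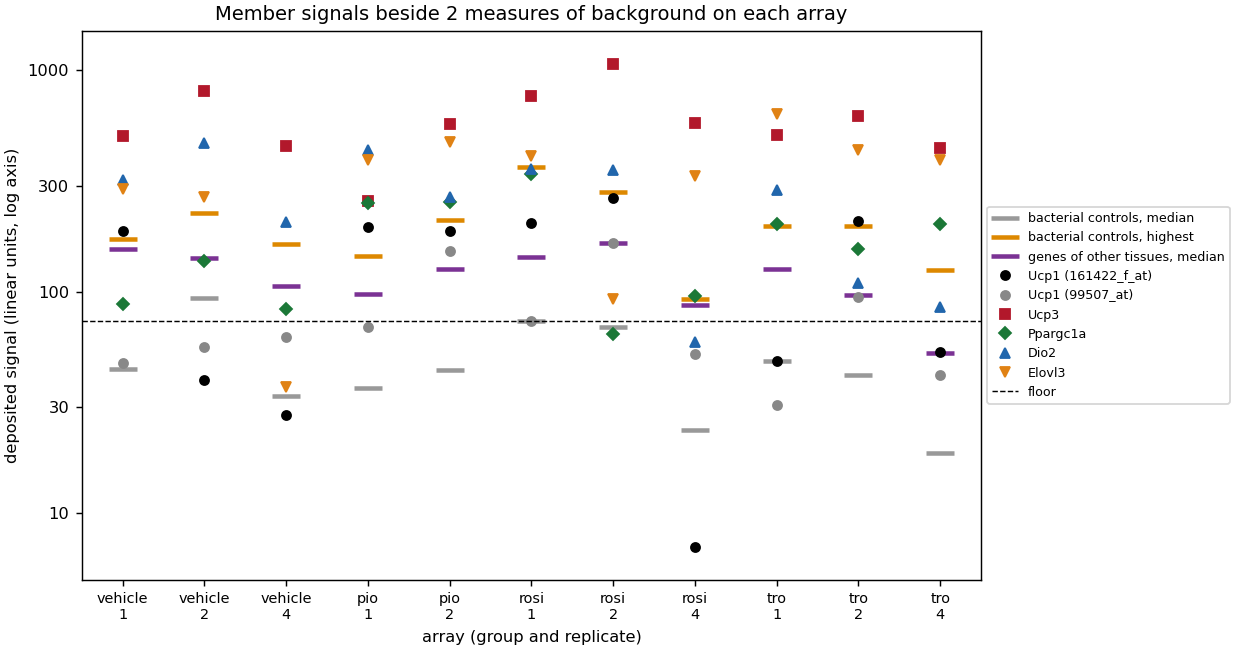
Deposited signal (linear units, log axis) of the 6 member probe sets on each of the 11 arrays, with horizontal bars for the median and the highest of the 15 bacterial control probe sets and for the median of the genes of other tissues on that array, and a dashed line at the floor of 73.7. The squares of Ucp3 lie above all bars on all 11 arrays, and the grey circles of the plain Ucp1 probe set lie under the highest bacterial control on all of them.

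Drug effects below are log2 fold changes with their standard errors from limma's linear model with a term for the set, on signals raised to the floor. Intervals are 95% intervals, and p-values were adjusted over all 11739 probe sets tested, with 0.05 as the threshold. All 6 member probe sets were tested. With limma, 0 of the 6 passed in any of the 3 comparisons with vehicle, where 0.903% of all probe sets tested passed with pioglitazone, 1.35% with rosiglitazone and 1.33% with troglitazone. At an unadjusted p under 0.05 the member counts were 0, 0 and 1, where 9.85%, 10.5% and 8.32% of all probe sets lay there. The members' estimates are therefore given as values with their intervals, and none is called a rise or a fall.

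**Figure D2:**
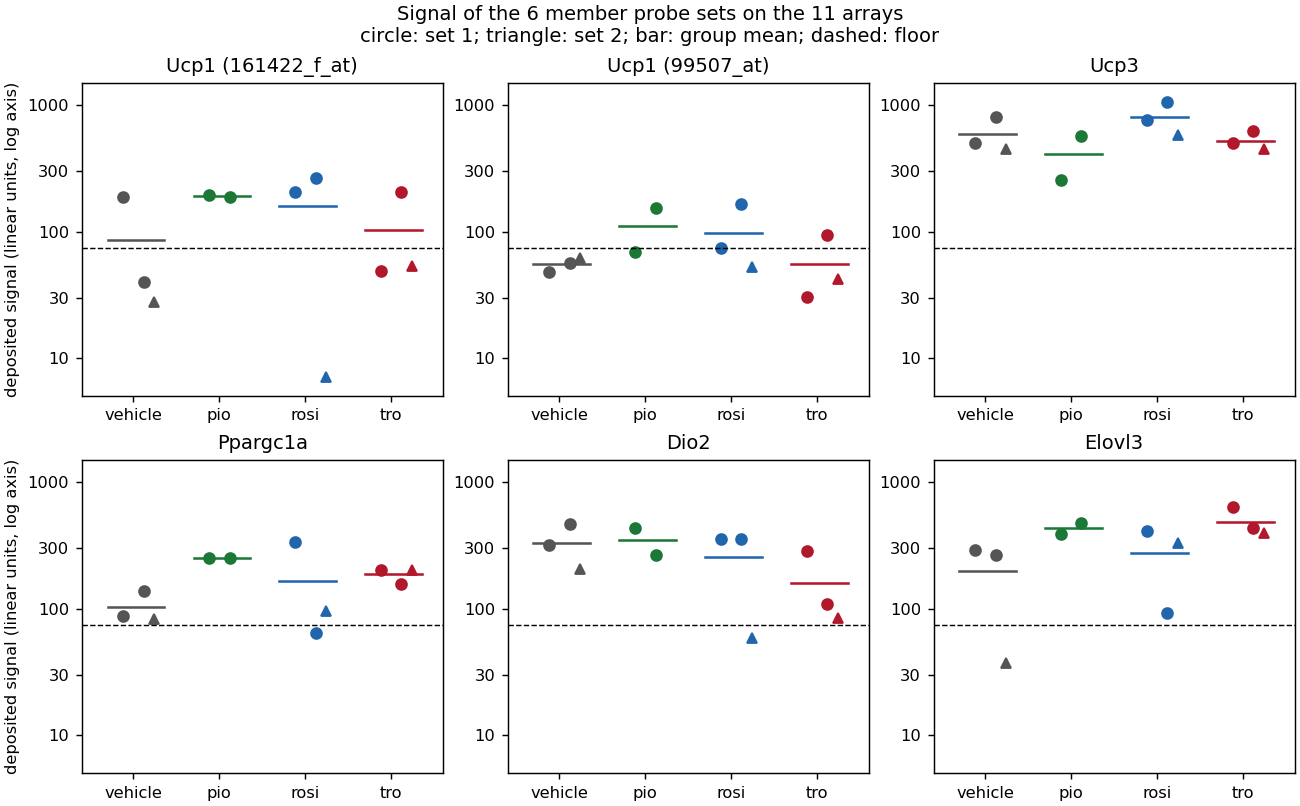
Deposited signal (linear units, log axis) of each member probe set by group, with a point for each array (circles for set 1, triangles for set 2), a bar at the group mean and a dashed line at the floor of 73.7. For Ppargc1a and Elovl3 the pioglitazone and troglitazone arrays lie above all 3 vehicle arrays, and for Ucp3 and Dio2 every drug group overlaps vehicle. Of all probe sets tested, 19.4% do not overlap between pioglitazone and vehicle, and 10.8% do not between troglitazone and vehicle.

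Ucp1, the proton carrier of brown and beige fat, did not pass with either probe set. The family probe set gave 188.5, 39.9 and 27.7 on vehicle arrays 1, 2 and 4. It gave 195.2 and 188.1 on the pioglitazone arrays. It read 204.8, 265.4 and 7 on rosiglitazone arrays 1, 2 and 4, and 48.8, 207.5 and 53.6 on troglitazone arrays 1, 2 and 4. Arrays above the floor and arrays at background occurred together in the vehicle, rosiglitazone and troglitazone groups, and each drug group overlapped vehicle. In set 2 all 3 arrays were at background, so the readings above the floor came from set 1 alone. The set 2 arrays had more of all their values at the floor, and the part of this in the Ucp1 readings was not tested. Its estimates were 0.58 ± 0.63 with pioglitazone (interval -0.77 to 1.93, adjusted p = 0.853), 0.66 ± 0.55 with rosiglitazone (-0.51 to 1.82, adjusted p = 0.722) and 0.05 ± 0.55 with troglitazone (-1.12 to 1.22, adjusted p = 1). The mean signals were 85.37 ± 89.52 for vehicle, 159.1 ± 135.1 for rosiglitazone and 103.3 ± 90.27 for troglitazone (SD, n = 3), with a spread close to the size of the mean, and 191.6 ± 5.02 for pioglitazone (n = 2), whose arrays lay close together. Leaving out single arrays moved the estimates between 0.08 and 0.94 with pioglitazone (vehicle replicates 2 and 1 left out), 0.22 and 0.97 with rosiglitazone (vehicle replicate 2 and rosiglitazone replicate 4), and -0.39 and 0.50 with troglitazone (vehicle replicate 2 and troglitazone replicate 1).

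The plain Ucp1 probe set gave 47.7, 56 and 62.1 on vehicle arrays 1, 2 and 4, all at background. It gave 69 and 152.9 with pioglitazone, 74, 165.5 and 52 with rosiglitazone, and 30.6, 94.8 and 42.1 with troglitazone. Replicate 2 was the highest array in each drug group. Both pioglitazone arrays read above the vehicle arrays, but replicate 1 was itself at background, so after the floor the groups overlapped, as they did for the other drugs. Rosiglitazone replicate 2 is the array that correlated least with the rest, and pioglitazone replicate 2 the one with the high β-actin ratio. The estimates were 0.44 ± 0.40 for pioglitazone (-0.41 to 1.29, adjusted p = 0.806), 0.39 ± 0.35 for rosiglitazone (-0.35 to 1.13, adjusted p = 0.739) and 0.12 ± 0.35 for troglitazone (-0.62 to 0.86, adjusted p = 0.987). The pioglitazone estimate was -0.09 without pioglitazone replicate 2 and 0.97 without replicate 1, and the rosiglitazone estimate was 0.01 without rosiglitazone replicate 2 and 0.65 without replicate 1. Without both of these replicates 2 the pioglitazone estimate was -0.02. The pair of Ucp1 probe sets shared part of their variation over the 11 arrays (r = 0.50 of log2 signal adjusted for the set). With every vehicle array of the plain probe set at the floor, a fall could not have been seen in it.

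Ucp3, the uncoupling protein best known from skeletal muscle and brown fat, was above the floor and above the highest bacterial control on every array, with a median signal of 571.6. It measured 503.5, 808.1 and 453.3 on vehicle arrays 1, 2 and 4, and 257 and 571.6 on pioglitazone arrays 1 and 2. It measured 765.7, 1062 and 577.3 with rosiglitazone and 507.3, 621.7 and 447 with troglitazone. Pioglitazone replicate 1 was the lowest of all arrays and rosiglitazone replicate 2 the highest, and every drug group overlapped vehicle.

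By mean signal the order for Ucp3 was rosiglitazone (801.7 ± 244.3, SD, n = 3), vehicle (588.3 ± 192, n = 3), troglitazone (525.3 ± 88.74, n = 3) and pioglitazone (414.3 ± 222.5, n = 2), and each pair of neighbours overlapped. The estimates were 0.45 ± 0.34 with rosiglitazone (-0.28 to 1.18, adjusted p = 0.695), -0.13 ± 0.34 with troglitazone (-0.86 to 0.60, adjusted p = 0.986) and -0.73 ± 0.40 with pioglitazone (-1.58 to 0.11, adjusted p = 0.598). The pioglitazone value rests on its pair of arrays unequally: it was -1.31 (limma, adjusted p = 0.193) without replicate 2 and -0.16 without replicate 1. The rosiglitazone value was 0.26 without vehicle replicate 1, and the troglitazone value was 0.06 without vehicle replicate 2. Markers of skeletal muscle, where Ucp3 is abundant, summed to 3826 to 4498 in vehicle, 4157 to 5768 with pioglitazone, 3961 to 5244 with rosiglitazone and 3139 to 5311 with troglitazone, and 0 of their 16 tested genes passed with any drug.

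Ppargc1a encodes PGC-1α, the coactivator that drives mitochondrial biogenesis and docks on PPARγ and on other nuclear receptors. Its signals were 87.8, 137.3 and 83.1 on vehicle arrays 1, 2 and 4, and 252.3 and 253.9 with pioglitazone. They were 339.3, 64 and 95.6 on rosiglitazone arrays 1, 2 and 4, and 202.6, 155.7 and 202 with troglitazone. Both pioglitazone arrays and all 3 troglitazone arrays were above the 3 vehicle arrays, while the rosiglitazone arrays ran from the highest signal of the gene to a reading at background.

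A separation of this kind was common: 19.4% of all probe sets tested had no overlap between pioglitazone and vehicle, and 10.8% had none between troglitazone and vehicle. By mean signal the order for Ppargc1a was pioglitazone (253.1 ± 1.131, SD, n = 2), troglitazone (186.8 ± 26.91, n = 3), rosiglitazone (166.3 ± 150.7, n = 3) and vehicle (102.7 ± 30.03, n = 3). Pioglitazone and troglitazone did not overlap, and the rosiglitazone arrays overlapped both of their neighbours in this order. Within set 1 rosiglitazone (mean 201.6) stood above troglitazone (179.1). The estimate was 1.23 ± 0.70 with pioglitazone, or 2.35-fold (-0.26 to 2.73, adjusted p = 0.615), and 0.89 ± 0.61 with troglitazone, or 1.85-fold (-0.41 to 2.19, adjusted p = 0.804). With rosiglitazone it was 0.42 ± 0.61 (-0.88 to 1.71, adjusted p = 0.86), and it turned to -0.26 without replicate 1 and became 0.94 without replicate 2. The estimates depend on the floor: with it at the 50th percentile of the pooled values (207.4) they were 0.25 with pioglitazone (limma, adjusted p = 0.714), 0.00 with troglitazone (adjusted p = 1), whose arrays, like those of vehicle, then all lay at the floor, and 0.24 with rosiglitazone (adjusted p = 0.617).

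Dio2, the deiodinase, had signals of 319.8, 467.4 and 206.8 on vehicle arrays 1, 2 and 4, and 436.8 and 268.3 with pioglitazone. It had 358.4, 354.5 and 59 with rosiglitazone and 287.6, 109.7 and 84.9 with troglitazone. The low readings were rosiglitazone replicate 4, which was at background, and troglitazone replicates 2 and 4, and each drug group overlapped vehicle. Within each group that has a set 2 array, that array was the lowest, and the set 2 arrays also had the lower array medians.

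By mean signal the order for Dio2 was pioglitazone (352.6 ± 119.1, SD, n = 2), vehicle (331.3 ± 130.7, n = 3), rosiglitazone (257.3 ± 171.7, n = 3) and troglitazone (160.7 ± 110.6, n = 3), with every pair of neighbours overlapping. These means pool the sets, and pioglitazone has no array of set 2. Within set 1 the order turned, with vehicle (393.6) above rosiglitazone (356.4), pioglitazone (352.6) and troglitazone (198.6). The troglitazone estimate was -1.18 ± 0.57, a level 2.26-fold below vehicle (-2.39 to 0.04, adjusted p = 0.629). The other estimates were -0.57 ± 0.57 with rosiglitazone (-1.79 to 0.64, adjusted p = 0.773) and -0.35 ± 0.66 with pioglitazone (-1.75 to 1.05, adjusted p = 0.942). In the model with a separate effect for each set, the troglitazone estimate was -1.12 in set 1 and -1.28 in set 2, and the rosiglitazone estimate -0.12 and -1.49. The troglitazone estimate was -0.73 without troglitazone replicate 2, the rosiglitazone estimate -0.14 without rosiglitazone replicate 4, and the pioglitazone estimate -0.70 and 0.01 without pioglitazone replicates 1 and 2. With the floor at the 50th percentile, the Dio2 estimates were -0.44 with troglitazone, -0.08 with rosiglitazone and -0.09 with pioglitazone.

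Elovl3, the elongase, had signals of 290.8, 266.7 and 37.1 on vehicle arrays 1, 2 and 4, and 393.3 and 475.7 with pioglitazone. It had 408.9, 92.4 and 333.1 on rosiglitazone arrays 1, 2 and 4, and 636.7, 435.7 and 394.9 with troglitazone. The pioglitazone and troglitazone arrays all lay above the vehicle arrays, and the rosiglitazone arrays overlapped them. Of all probe sets tested, 19.4% had no overlap between pioglitazone and vehicle, and 10.8% had none between troglitazone and vehicle. Vehicle replicate 4 was at background and far below its own group.

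By mean signal the order for Elovl3 was troglitazone (489.1 ± 129.4, SD, n = 3), pioglitazone (434.5 ± 58.27, n = 2), rosiglitazone (278.1 ± 165.3, n = 3) and vehicle (198.2 ± 140, n = 3). Troglitazone overlapped pioglitazone, pioglitazone overlapped rosiglitazone on 1 array, and rosiglitazone overlapped vehicle. Within set 1 vehicle (mean 278.8) stood above rosiglitazone (250.6). The troglitazone estimate, 1.42 ± 0.62 or 2.68-fold (0.09 to 2.75), was the only member value with an unadjusted p under 0.05, and its adjusted p with limma was 0.544. It was 0.72 (limma, adjusted p = 0.868) without vehicle replicate 4 and 0.92 (adjusted p = 0.386) with the floor at the 50th percentile. The estimate was 1.10 ± 0.72 with pioglitazone, or 2.15-fold (-0.44 to 2.64, adjusted p = 0.689; 0.64 without vehicle replicate 4 and 0.71 with the higher floor), and 0.38 ± 0.62 with rosiglitazone (-0.95 to 1.71, adjusted p = 0.879).

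For rosiglitazone single arrays set the direction of the Elovl3 estimate. It was 1.20 without rosiglitazone replicate 2 (limma, adjusted p = 0.445) and -0.32 without vehicle replicate 4. By set it was -0.52 in set 1 and 2.18 in set 2, a difference of 2.69 ± 1.24 (limma, adjusted p = 1). For troglitazone the set values were 0.92 and 2.42. Over all probe sets, limma found 0 of 11739 differences between the sets for either drug, with 437 at an unadjusted p under 0.05 for rosiglitazone and 288 for troglitazone.

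The width of these intervals bounds what the arrays could show. For a member to pass with its own error, at the last p that passed, Ppargc1a would have needed an 8.86-fold difference with pioglitazone and 6.08-fold with troglitazone, and Elovl3 9.42-fold and 6.4-fold. Dio2 would have needed 7.69-fold and 5.41-fold, and the family probe set of Ucp1 7.15-fold and 5.09-fold. The least demanding were Ucp3, at 3.42-fold and 2.77-fold, and the plain Ucp1 probe set, at 3.46-fold and 2.79-fold. With rosiglitazone these sizes ran from 2.76-fold for Ucp3 to 6.36-fold for Elovl3. The intervals thus leave room for differences of several fold in Ppargc1a, Dio2 and Elovl3.

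**Figure D3:**
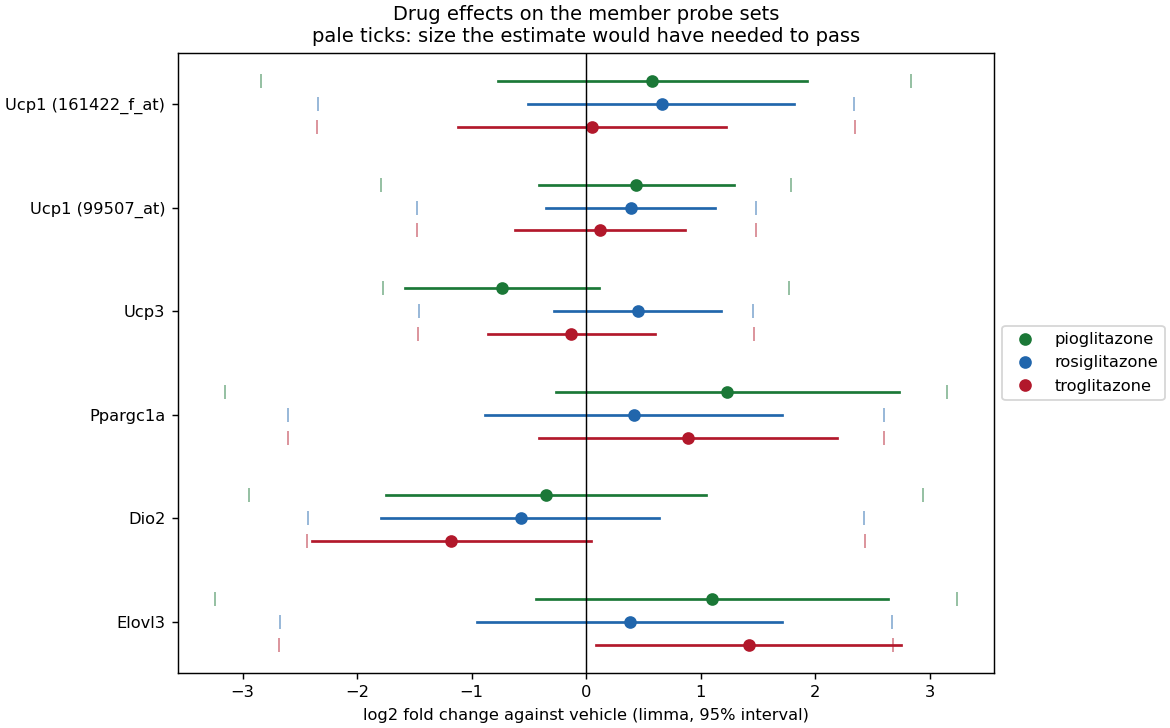
Log2 fold change against vehicle of each member probe set with pioglitazone (2 arrays), rosiglitazone (3) and troglitazone (3), against 3 vehicle arrays; points are limma estimates, lines 95% intervals and pale ticks the size that would have passed. Only the troglitazone interval of Elovl3 (0.09 to 2.75) leaves out 0, and every point lies inside its pair of ticks.

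As a group, the 6 probe sets had a median log2 fold change of 0.51 with pioglitazone, where the median of all probe sets was -0.08. It was 0.40 against 0.00 with rosiglitazone and 0.08 against -0.03 with troglitazone. Estimates above 0 numbered 4, 5 and 4 of 6. The drug comparisons share the vehicle arrays, so these counts are not independent of each other. The counts and the medians also include Ucp1 with both of its probe sets. For the plain one all vehicle arrays were at the floor, so its estimates had little room below 0 and their sign carries little information. The members did not shift as a block: Ppargc1a, Elovl3 and both Ucp1 probe sets had positive estimates with all 3 drugs, Dio2 had negative ones, and Ucp3 was positive with rosiglitazone alone.

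For correlations across the 11 arrays, log2 signals were adjusted for the set, with differences between the drug groups left in. Ppargc1a and Elovl3 varied together most (r = 0.71), and Dio2 and Elovl3 varied in opposite directions (r = -0.54). Ucp3 and Ppargc1a had r = -0.41. These are descriptions over arrays that share drug groups and array-wide scaling. Rosiglitazone replicate 2, the array that correlated least with the rest, had the lowest Ppargc1a signal (64) and the highest Ucp3 signal (1062). Its Elovl3 signal was low too (92.4). How far the r values depend on this array was not tested.

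Among 7961 genes, those most like each member by the same correlation over the 11 arrays were listed for the members above the floor on at least 9 arrays. For Ucp3 they were Pex6 (r = 0.963), Myo1d (0.925) and Guca2a (0.923), and for Ppargc1a Ramp1 (0.904), Arap3 (0.891) and Olfr138 (0.878). For Dio2 they were Mcm5 (0.9), Rad23b (0.889) and Irf2bp1 (0.878), and for Elovl3 Eef1d (0.896), Acot7 (0.887) and H2-D1 (0.883). No member appeared among them. Each of these genes was picked for its high r from 7961 genes on 11 arrays. Whether such values exceed what the search alone would give was not tested. Guca2a and Olfr138 lay above the floor on 7 arrays each.

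Pioglitazone and troglitazone, which carry different side chains on a common thiazolidinedione ring, were given at the same dose and time, so they are the 1 pair of compounds that can be compared. Rosiglitazone was given at another dose. In troglitazone against pioglitazone, 0 of 6 member probe sets passed with limma, where 0.0341% of all probe sets did. None had an unadjusted p under 0.05, where 6.35% of all probe sets had. All 3 troglitazone arrays of Ppargc1a lay below both pioglitazone arrays, and 16.3% of all probe sets had no overlap in this comparison.

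The differences, troglitazone minus pioglitazone, were -0.34 ± 0.70 for Ppargc1a (-1.84 to 1.15, adjusted p = 0.995), 0.32 ± 0.72 for Elovl3 (-1.22 to 1.86, adjusted p = 0.995) and -0.83 ± 0.66 for Dio2 (-2.23 to 0.57, adjusted p = 0.921). For Ucp3 the difference was 0.60 ± 0.40 (-0.24 to 1.45, adjusted p = 0.899). For Ucp1 it was -0.54 ± 0.63 (-1.89 to 0.81, adjusted p = 0.967) with the family probe set and -0.32 ± 0.40 (-1.17 to 0.53, adjusted p = 0.972) with the plain one. These intervals hold differences of more than 2-fold in at least 1 direction for every member, so the compounds are not shown to act alike on them.

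The genes around the members give the setting. Of 17 measured brown and beige genes other than the members, 16 were tested. Cox8b and Cidea read far above the floor. Cox8b, a cytochrome oxidase subunit of heart and brown fat, had a median signal of 7288.2, from a probe set with the suffix r. Another Cox8b probe set had a median of 1491.8. With pioglitazone the estimates of this pair went opposite ways (0.38 and -0.45), and neither passed. The median was 3335.8 for Cidea, a lipid droplet protein abundant in brown fat, and 539.1 for Cox7a1. In all, 7 of the 17 lay above the floor on every array, a share like that of the genes of other tissues (9 of 23). The other 4 of the 7 were the transcription factors Ebf2 (266.9) and Ebf3 (347.2), the transcriptional coregulator Cited1 (414.2) and the potassium channel Kcnk3 (803.6). The 90th percentile over the genes of other tissues ran from 219.6 to 644.4 across arrays. The medians of Cox7a1, Ebf2, Ebf3 and Cited1 lay within that range. The transcription factor Shox2 and the receptor Ppara lay above it on 10 arrays. Bmp8b and Lhx8 lay above it on 5 arrays, Ehhadh on 4 and Zic1 on 1.

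Cidea was the only one of the 16 that passed. Its signals were 1317.5, 1813.7 and 3483.5 on vehicle arrays 1, 2 and 4, and 2326.8 and 2792 with pioglitazone. They were 3335.8, 3193.7 and 6551.1 with rosiglitazone and 3512.5, 4000.4 and 6208.5 with troglitazone. The set 2 array was the highest in each group that has one, and within each set the rosiglitazone and troglitazone arrays lay above vehicle. Cidea rose 2.03-fold with rosiglitazone (log2 1.02 ± 0.16, adjusted p = 0.00369) and 2.19-fold with troglitazone (1.13 ± 0.16, adjusted p = 0.00119), and its pioglitazone estimate was 0.65 ± 0.19 (adjusted p = 0.16). Both Cidea calls held with each array left out in turn, and both were lost with no set term, with no intensity trend and from the 2 groups alone. The rosiglitazone call was also lost in set 1 alone and without pioglitazone and rosiglitazone replicates 2. The list's median was -0.01, 0.13 and 0.10 with pioglitazone, rosiglitazone and troglitazone.

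Among the 28 measured partners and targets of PGC-1α, 1 rose and 1 fell with pioglitazone, 1 and 1 with rosiglitazone, and 1 and 2 with troglitazone. The gene that rose was Esrra, the nuclear receptor ERRα, through which PGC-1α acts on mitochondrial genes. Its signals were 1930.3, 2119.8 and 1931.5 on vehicle arrays 1, 2 and 4, and 4186.5 and 3736.5 with pioglitazone. They were 3651.6, 3532.6 and 3331.1 with rosiglitazone and 3488.7, 3588.9 and 3378.4 with troglitazone, so all 8 drug arrays were above all 3 vehicle arrays.

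Esrra rose 1.95-fold with pioglitazone (log2 0.96 ± 0.15, adjusted p = 0.00634), 1.76-fold with rosiglitazone (0.81 ± 0.13, adjusted p = 0.00467) and 1.75-fold with troglitazone (0.81 ± 0.13, adjusted p = 0.00406). The call was lost without pioglitazone replicate 1 for pioglitazone (0.88, adjusted p = 0.0522) and without troglitazone replicate 4 for troglitazone (0.80, adjusted p = 0.0517). With no set term, in set 1 alone and with no intensity trend, the Esrra call was lost for every drug. From the 2 groups alone it was lost for pioglitazone and rosiglitazone. A second Esrra probe set, a family one, did not pass, at 0.37 (adjusted p = 0.768), 0.14 (adjusted p = 0.892) and 0.41 (adjusted p = 0.778).

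Pparg, the receptor the drugs bind, fell with each drug, with log2 fold changes of -1.93 for pioglitazone (adjusted p = 0.000901), -1.43 for rosiglitazone (adjusted p = 0.00204) and -1.89 for troglitazone (adjusted p = 0.000133). Its vehicle arrays read 1728.7 to 2886.1 and its 8 drug arrays 462.2 to 1053.7. Nrip1, a corepressor that restrains Ucp1 and oxidative genes in fat, fell 2.41-fold with troglitazone (log2 -1.27 ± 0.27, adjusted p = 0.0291). Its estimates were -0.99 with pioglitazone (adjusted p = 0.211) and -0.95 with rosiglitazone (adjusted p = 0.134). Nrip1 read 1161 to 1703.6 on the vehicle arrays and 440.6 to 998.9 on the drug arrays, with no overlap, and its call was lost when 8 of the 11 arrays were each left out in turn (-1.37 to -1.14, adjusted p from 0.0554 to 0.182).

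In thyroid hormone action, the pathway Dio2 feeds, 7 of 9 measured genes were tested and 1 fell with each drug. That gene was Thrsp, a thyroid hormone-responsive gene of lipid synthesis. Its signals were 6958.8 to 9796.1 on the vehicle arrays and 1860.9 to 4967.2 on the drug arrays. Thrsp fell 2.49-fold with pioglitazone (log2 -1.32 ± 0.19, adjusted p = 0.00275), 2.51-fold with rosiglitazone (-1.33 ± 0.17, adjusted p = 0.000621) and 3.6-fold with troglitazone (-1.85 ± 0.17, adjusted p = 2.35e-05). The receptor Thra did not pass, with estimates of -0.79 ± 0.27 for pioglitazone (adjusted p = 0.259), -0.65 ± 0.23 for rosiglitazone (adjusted p = 0.272) and -0.47 ± 0.23 for troglitazone (adjusted p = 0.651). Thrb, at 0.53, 0.56 and 0.71, did not pass either (adjusted p = 0.873, 0.765 and 0.846). It lay above the floor on only 4 arrays, with a median signal of 65.1.

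Of 20 tested genes of adrenergic and cyclic AMP signalling, which lies upstream of Ucp1 and Dio2, 1 fell with pioglitazone and 0 passed with the other drugs. It was Rgs2, a brake on G protein signalling, which fell 4.9-fold (log2 -2.29 ± 0.51, adjusted p = 0.0465). Its signals were 176.2 and 797.2 with pioglitazone and 1860.3 to 2132.9 with vehicle. All 8 drug arrays (176.2 to 1115.9) lay below vehicle, and the estimates were -1.21 ± 0.44 with rosiglitazone (adjusted p = 0.288) and -1.52 ± 0.44 with troglitazone (adjusted p = 0.155). Troglitazone against pioglitazone was 0.78 ± 0.51 (adjusted p = 0.898). The Rgs2 call with pioglitazone was lost when any of the 10 arrays other than pioglitazone replicate 2 was left out (-2.41 to -1.20, adjusted p from 0.0634 to 0.387).

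Among the 10 tested mitochondrial carriers, the protein family of the uncoupling proteins, Slc25a20 was the only one to pass. It carries acylcarnitines into the matrix for oxidation. Its signals were 514.3 to 763.5 on the vehicle arrays and 1167.6 to 1660.6 on the 8 drug arrays. Slc25a20 rose 2.27-fold with rosiglitazone (log2 1.19 ± 0.21, adjusted p = 0.0102) and 1.9-fold with troglitazone (0.93 ± 0.21, adjusted p = 0.0481), and its pioglitazone estimate was 0.98 (adjusted p = 0.0939). The troglitazone call was lost without any one of the 11 arrays (0.71 to 1.08, adjusted p from 0.0541 to 0.293), and the rosiglitazone call without vehicle replicate 1, vehicle replicate 4 or rosiglitazone replicate 4 (0.97 to 1.19, adjusted p from 0.0506 to 0.106). The ADP/ATP carriers Slc25a4 and Slc25a5, which also conduct protons, had rosiglitazone estimates of 0.28 ± 0.13 (adjusted p = 0.462) and 0.51 ± 0.17 (adjusted p = 0.24).

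In fatty acid elongation, the pathway of Elovl3, 5 genes other than it were tested. Elovl5, the elongase of polyunsaturated fatty acids, fell 2.38-fold with pioglitazone (log2 -1.25 ± 0.24, adjusted p = 0.0189) and 2.01-fold with troglitazone (-1.01 ± 0.21, adjusted p = 0.024). Leaving out vehicle replicate 1 or 2 or rosiglitazone replicate 1 ended both Elovl5 calls, pioglitazone replicate 1 also that with pioglitazone, and troglitazone replicate 1 or 4 that with troglitazone, at -1.25 to -1.06 and -1.08 to -0.83. Hsd17b12, the ketoacyl reductase of the elongation cycle, rose by 1.09 on the log2 scale with pioglitazone (adjusted p = 0.0465), by 1.44 with rosiglitazone (adjusted p = 0.00183) and by 1.12 with troglitazone (adjusted p = 0.0107). Its rosiglitazone call held with each array left out in turn. That call was lost with no filter on dim probe sets, in set 1 alone and with no intensity trend. It was also lost from the 2 groups alone and without pioglitazone and rosiglitazone replicates 2. The pioglitazone call was lost for 10 of the 11 arrays (0.79 to 1.4), and the troglitazone call for vehicle replicates 1 and 4 and each troglitazone array (0.80 to 1.18). Of the 12 tested genes of creatine and calcium cycling, which are routes of heat production without Ucp1, 0 passed with any drug.

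**Figure D4:**
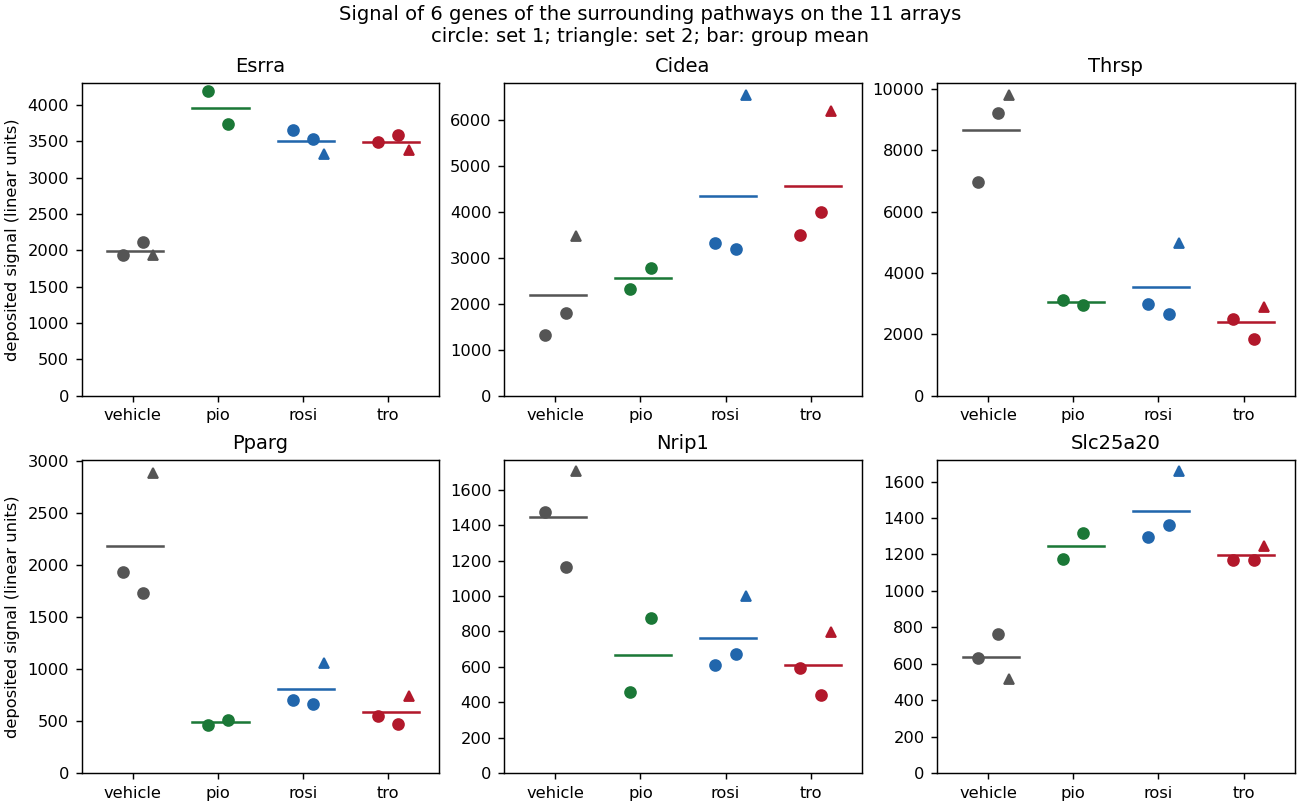
Deposited signal (linear units, axes from 0) of 6 genes of the surrounding pathways by group, with a point for each array (circles for set 1, triangles for set 2) and a bar at the group mean. For Esrra and Slc25a20 all 8 drug arrays lie above the vehicle arrays, for Thrsp, Pparg and Nrip1 all lie below them, and for Cidea the set 2 arrays are the highest of their groups.

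Markers of white adipocytes and of other cell states moved beside these genes. Of 10 tested genes selective for white fat, 0 passed with pioglitazone, and Retn and Agt fell with rosiglitazone (log2 -0.84 and -0.74) and with troglitazone (-1.68 and -0.95). The rosiglitazone call of Retn was lost for 8 arrays left out in turn (-0.97 to -0.70) and that of Agt for vehicle replicate 4 and rosiglitazone replicates 1 and 4 (-0.74 to -0.63). Of the 11 general adipocyte markers, 1 rose and 2 fell with pioglitazone, and 1 rose and 3 fell with each of the other drugs. The riser was Cidec, a lipid droplet protein, at log2 1.43, 1.16 and 1.07, and Fasn, the fatty acid synthase, fell with each drug (-1.11, -1.17 and -1.64), its pioglitazone call being lost without pioglitazone replicate 1 (-0.89). Of 13 tested preadipocyte and fibroblast markers, 1 fell with pioglitazone, 1 with rosiglitazone and 3 with troglitazone, the 3 being Fn1, Col1a1 and Col3a1, each of which lost its call when some single arrays were left out. With troglitazone, another Col1a1 probe set (-0.51, adjusted p = 0.742) and a pair of other Col3a1 probe sets (-1.58, adjusted p = 0.504, and -0.17, adjusted p = 0.932) did not pass. Of 10 tested macrophage markers 0 passed with pioglitazone or rosiglitazone, and Cd14 fell with troglitazone (log2 -1.49 ± 0.31, adjusted p = 0.0246), a call lost for 6 arrays left out in turn (-1.69 to -1.23). The part of the change in these markers in the values of Esrra, Cidea and Thrsp was not tested. Calls among these surrounding genes also depend on the arrays and settings used. Of the listed genes, 9, 11 and 16 passed with pioglitazone, rosiglitazone and troglitazone, and 3, 2 and 6 in set 1 alone. Only the troglitazone calls of Fasn, Thrsp and Pparg held under all 24 alternatives. In troglitazone against pioglitazone, 0 of the 178 tested listed genes passed with limma, and 12 had an unadjusted p under 0.05.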

How the data were processed

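The deposited values are signal intensities of one-colour arrays on a linear scale, per the labels 1 array per RNA sample. The authors had scaled them, since the mean after trimming 2% at each end was 500.289 to 500.433 on every array. No software or build is named in the labels, and no detection calls were used. Of 12488 probe sets, 66 controls were left out. Signals under the floor were raised to it before log2 was taken, which limits how large a fall of a dim transcript can be seen. The 11739 probe sets above the floor on at least 2 arrays were tested with limma 3.58.1 in R 4.3.3: group and set terms, all 11 arrays, 6 residual degrees of freedom, intensity trend, two-sided, Benjamini-Hochberg adjustment. The method was checked on simulated data. The number of arrays limits the precision.

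GEO's annotation names 1 gene for 10833 probe sets, more than 1 for 396 and no gene for 1193. Outside the members, a gene stands as its brightest tested probe set by mean log2. Members were named whatever their test. From each list, up to 6 genes that passed were named, largest change first, and adipocyte markers whatever their test. The members and lists were chosen with earlier results of these data known. Genes singled out for a low, bright or receptor role (the brown, muscle and macrophage markers given for their level, Tnp1, Thra, Thrb, Slc25a4, Slc25a5) were chosen after their values were seen. Alternatives were 2 other scalings, 3 other floors, no filter, 7 changes to the model or arrays used, and leaving out each array.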

Additional observations from a re-analysis of the deposited data

How the results depend on the processing

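No member probe set passed in any comparison under any of the 24 alternatives run with limma (572 estimates, adjusted p from 0.167 to 1), and at most 2 members had an unadjusted p under 0.05 in a comparison. Of the 572, 548 kept their direction, 3 were 0.00 and 21 turned, as follows. For the family probe set of Ucp1 a floor at the 50th percentile gave -0.02 with pioglitazone and 0.02 in troglitazone against pioglitazone, and leaving out single arrays gave -0.39 to 0.50 with troglitazone (below 0 for 3 arrays). For the plain probe set the pioglitazone value was -0.02 without the 2 arrays that stand apart (pioglitazone and rosiglitazone replicates 2) and -0.09 to 0.97 with single arrays left out. Its troglitazone value was -0.12 with a floor at the 10th percentile and -0.02 with an added constant, and with a floor at the 50th percentile it was not tested. Its difference between troglitazone and pioglitazone was 0.13 with the β-actin ratio as a covariate, 0.14 without the 2 arrays and -0.85 to 0.21 with single arrays left out. Ucp3 with troglitazone was 0.01 with the β-actin covariate and -0.31 to 0.06 with single arrays left out. Dio2 with pioglitazone was 0.13 with no set term, 0.03 without the 2 arrays and -0.70 to 0.01 with single arrays left out. Elovl3 with rosiglitazone was -0.52 in set 1 alone and -0.32 to 1.20 with single arrays left out, and Ppargc1a with rosiglitazone was -0.26 to 0.94. The causes were not tested. Adipocyte markers that did not pass turned too. With single arrays left out, Adipoq with rosiglitazone was -0.08 to 0.06, Cebpa -0.05 to 0.12 and Slc2a4 -0.12 to 0.22; Lpl with pioglitazone was -0.60 to 0.16 and Cd36 -0.44 to 0.66; Cd36 with troglitazone was -0.12 to 0.08 and Lipe -0.01 to 0.07. Median centring gave 0.05 for Adipoq and 0.08 for Cebpa with pioglitazone and 0.09 for Cd36 with troglitazone. Quantile normalisation gave -0.09 for Cebpa with rosiglitazone, and 0.02 for Cd36 and -0.16 for Lipe with troglitazone. The β-actin covariate turned Cd36 to -0.26 with pioglitazone and 0.11 with troglitazone, leaving out the 2 arrays turned it to -0.45 with pioglitazone, and set 1 alone put Lipe at 0.00 with troglitazone.

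Counts over all probe sets moved more. Pioglitazone had 106 calls, and 25 when the set term was dropped, 23 in set 1 alone, 6 with no intensity trend, 0 from the 2 groups alone (1063 at an unadjusted p under 0.05) and 43 to 111 with an array left out. Rosiglitazone had 159, and 99 with no filter, 40 without the set term, 19 in set 1 alone, 6 with no trend, 18 from the 2 groups alone, 58 without the 2 arrays and 74 to 158 with an array left out. Troglitazone had 156, and in the same order 89, 55, 37, 19, 40 and, with an array left out, 72 to 162. Troglitazone against pioglitazone had 4, and 1 without the set term, 0 in set 1 alone (629 at an unadjusted p under 0.05), 0 with no trend (657), 0 from the 2 groups alone (812), 25 without the 2 arrays and 1 to 7 with an array left out. Of the 178 listed genes, pioglitazone had 9 calls, and 3 without the set term, 3 in set 1 alone, 1 with no trend, 0 from the 2 groups alone (25 at an unadjusted p under 0.05) and 3 to 10 with an array left out. Rosiglitazone had 11, and 5, 2, 0 (33 at an unadjusted p under 0.05) and 2 in that order, 4 without the 2 arrays and 8 to 11 with an array left out. Troglitazone had 16, and 10 with no filter, 5 without the set term, 6 in set 1 alone, 3 with no trend, 5 from the 2 groups alone and 8 to 17 with an array left out.

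Replicate numbers did not pair the arrays: of 15 pairs with the same number, 12 had deviations correlating under 0.1 (r from -0.099 to 0.362). With the replicate number as a block, all probe sets called were 114 with pioglitazone, 162 with rosiglitazone, 144 with troglitazone and 4 in troglitazone against pioglitazone, and 0 members were called, as without it.

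The floor hides falls under 73.7, which bears on the plain Ucp1 probe set, at the floor on all vehicle arrays, and the groups hold 2 or 3 arrays. Where 1 array lies at background in a group (Elovl3 in vehicle replicate 4, Dio2 in rosiglitazone replicate 4, Ppargc1a in rosiglitazone replicate 2), the group's value depends on it.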
